A study of Rattus norvegicus with 60 samples.

Results

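The antioxidant, glutathione and metallothionein genes followed here are a given list of 47 genes whose products take apart superoxide and peroxides, make, use and recycle glutathione, repair oxidised thiols, bind zinc and copper, or handle heme and iron. The list names genes and sets no threshold on their levels. It was chosen with earlier results of these data known. A member was found by its current symbol or its gene identifier, its brightest line was kept, and it was tested if it was detected (detection p-value under 0.05) on at least 4 arrays. Of the 47 genes, 42 had a line and 40 were tested, among 13918 genes tested and 21792 gene lines in all. The metallothionein Mt1 stands as Mt1a in the deposited names and the glutaredoxin Glrx as Glrx1. Slc7a11, which imports cystine, and Srxn1, which restores overoxidised peroxiredoxins, were above background on 0 of 60 arrays, so only a bound on their level exists. Prdx4, Ggt1, Mt2A, Tkt and Msrb1 had no line under this rule and were not analysed here.

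The lungs came from male CDF Fisher 344 rats about 3 months old. On each of 5 days, silica rats inhaled crystalline silica for 6 hours (15 mg/m3), and control rats breathed filtered air alongside them. Lungs were taken 1, 2, 4, 8 or 16 weeks later, with 8 silica rats and 4 air rats at each time. Each of the 60 Illumina bead arrays held total RNA from the lung of 1 rat, so the replicates are animals. Silica and air rats shared strain, sex, housing and exposure schedule, and the labels name no other agent or allele.

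Superoxide dismutases turn superoxide into hydrogen peroxide, which catalase, glutathione peroxidases and peroxiredoxins then reduce. Glutathione peroxidases draw on glutathione and peroxiredoxins on thioredoxin, and both carriers are reduced again with electrons from NADPH. Glutathione S-transferases join glutathione to reactive aldehydes and other electrophiles, and in the lung several of them are known from airway epithelium. Metallothioneins are small cysteine-rich proteins that hold zinc and copper, and their genes respond to zinc through the factor MTF1. NRF2 (Nfe2l2), held back by KEAP1, drives many of these genes through the antioxidant response element, ARE.

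Median signals ran from 60.2 to 97.8 among the 60 arrays, and 11225 to 12594 genes were detected per array. The signal column of replicate 3 of silica at 4 weeks was displaced by 2 lines in the deposited table and was moved back before any use. The lung markers Nkx2-1, Sftpc, Scgb1a1 and Ager were all measured, and their summed signal was 43900 to 49400 in silica lungs and 45900 to 49600 in air lungs at 16 weeks. All values below are log2 of the background-corrected, quantile-normalised signal, and differences are silica minus air. A signal depends on its probe, so levels are compared between rats and never between genes. A call is an adjusted p under 0.05 from limma, with Benjamini-Hochberg adjustment over all 13918 genes, in 1 fit of the 10 groups.

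Silica lungs had more Sod2, Mt1, Hmox1 and Prdx5 message and less Sod3, Gpx3, Gstp1 and Gsta4 message, while the enzymes that make glutathione did not pass the test. Whole lung was measured, so fewer cells of a type and less message per cell cannot be told apart. At 1 week 3 of the 40 members were called, all higher, beside 3.79% of all genes tested (2.67% higher, 1.13% lower). At 2 weeks 7 were called, 4 higher and 3 lower, beside 9.27% of all genes (4.73% higher, 4.53% lower). At 4 weeks the count was 4, all higher, beside 6.42% (2.78% higher, 3.64% lower). At 8 weeks it was 10, 6 higher and 4 lower, beside 8.91% (4.77% higher, 4.14% lower). At 16 weeks it was 19, 9 higher and 10 lower, beside 22.7% (10.5% higher, 12.2% lower). As shares, 7.5, 17.5, 10.0, 25.0 and 47.5% of the members were called at the 5 times. Since the list was chosen with earlier results of these data known, these shares beside those of all genes describe the list and do not test it. Among genes detected on all 60 arrays, which 39 of the 40 members were, the background was 4.88, 12.2, 8.47, 11.5 and 28.3%. Averaged over the 5 times, 25 members were called, 14 higher and 11 lower, which is 62.5% of members beside 35.2% of all genes (14.6% higher, 20.6% lower) and 44.0% of those detected on every array. With arrays scaled to a common median in place of quantiles, the same count was 6 higher and 12 lower, so the balance of direction differed between scalings. Of the 43 calls at single times, 22 were lost under that scaling, as were 8 of the 25 calls in the mean. The last section names the calls at single times that held under every alternative. A call given below without a loss need not be among them.

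Members called at 1 and 4 weeks were all higher, and at the other times calls went both ways, although in the authors' values 1 of 7 was lower at 4 weeks and under median scaling all 3 were higher at 8 weeks. The median difference over the 40 members, in order of time, was 0.05, 0.01, 0.03, 0.05 and 0.01, beside -0.01, -0.01, -0.02, -0.01 and -0.01 over all genes tested. Silica and air rats did not overlap for 3, 5, 5, 5 and 10 members at the 5 times, beside 3.34, 3.35, 3.46, 5.22 and 12.4% of all genes. Sod2 and Mt1 were the 2 members called at all 5 times, Prdx5 was called at 4, and Hmox1, Sod3 and Gstp1 at 3. Another 4 members were called at 2 times, 12 at 1 time and 18 at no single time. The same count over all genes was not taken, so these numbers describe single members and not the list as a set. Standard errors of the differences ran from 0.04 to 0.17.

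**Figure D1:**
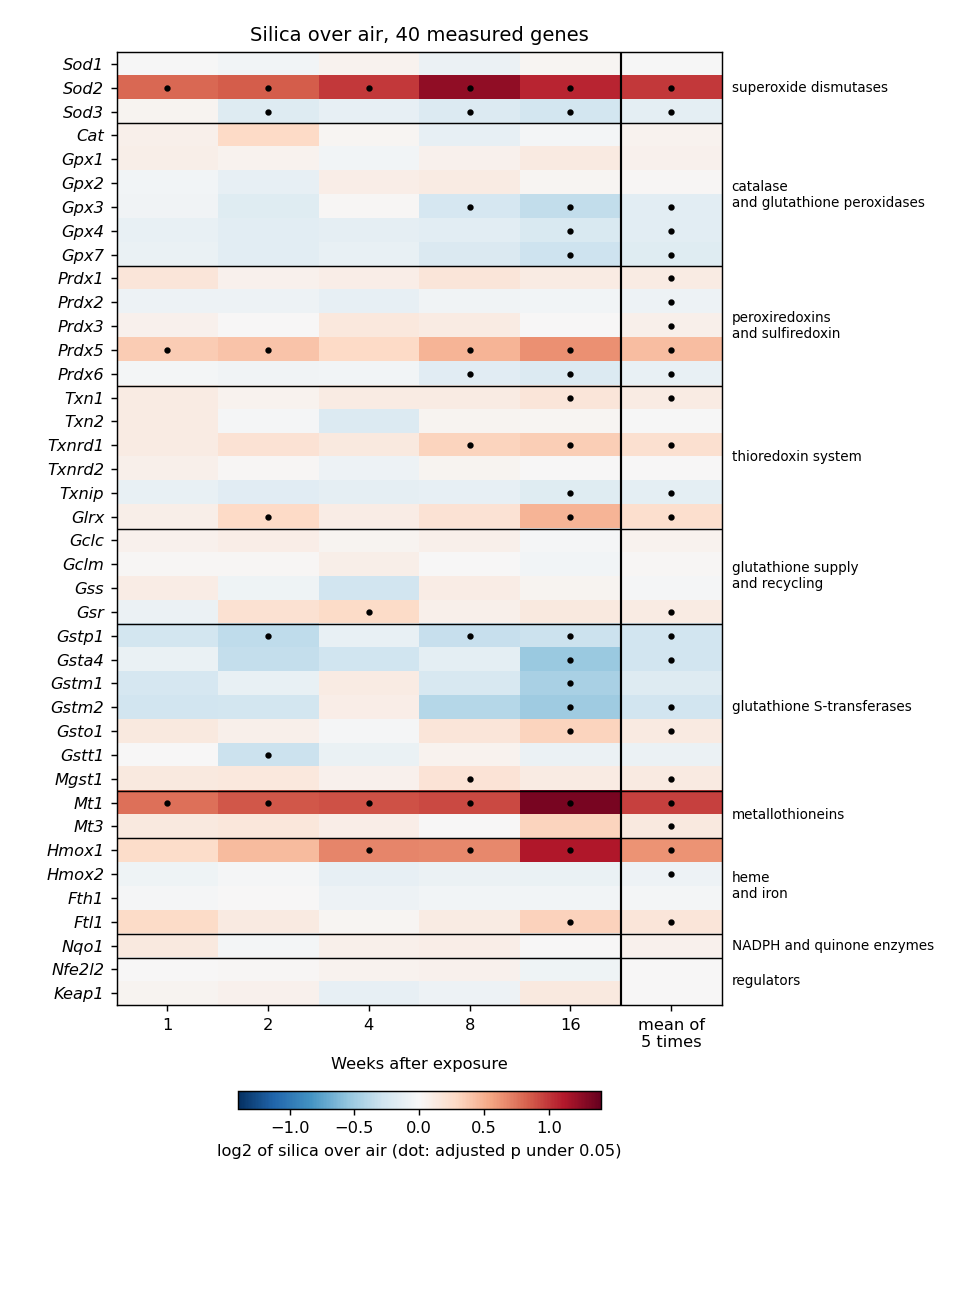
Log2 difference, silica minus air, of the 40 measured members (rows, by role) at each week after exposure and as the mean over the 5 times (columns), with colour for the size and a dot where the limma adjusted p is under 0.05. Sod2 and Mt1 are dotted in every column, and among single times dots are most numerous at 16 weeks, where 19 members are called (25 in the mean).

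Sod2, the manganese superoxide dismutase of mitochondria, was 1.74- to 2.36-fold higher in silica lungs at the 5 times. At 1 week Sod2 measured 10.69 to 10.89 in silica lungs (median 10.75), against 10.10, 9.88, 9.83 and 10.04 in air lungs. At 2 weeks Sod2 measured 10.57 to 11.16 in silica lungs (median 10.86), against 10.00, 10.12, 9.90 and 9.97 in air lungs. At 4 weeks Sod2 measured 10.77 to 11.16 in silica lungs (median 10.90), against 10.30, 10.04, 9.74 and 9.76 in air lungs. At these times every silica rat stood above every air rat. At 8 weeks Sod2 measured 11.04 to 11.52 in silica lungs (median 11.25), against 10.47, 10.03, 9.65 and 10.02 in air lungs. At 16 weeks Sod2 measured 10.92 to 11.50 in silica lungs (median 11.28), against 10.34, 10.16, 10.22 and 10.07 in air lungs. The groups were again apart, although the air rats at 8 weeks spread over more than the silica rats did. The differences were 0.80, 0.85, 0.99, 1.24 and 1.07 (SE 0.10 each), with adjusted p of 1.86e-07, 2.04e-08, 3.39e-10, 9.94e-14 and 7.45e-12 by limma. The mean over the 5 times was 0.99 ± 0.05 (SE; 1.98-fold; adjusted p = 3.29e-25). A change of the silica effect with time was not called for Sod2 (slope 0.09 ± 0.03 per doubling of weeks, adjusted p = 0.141).

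Sod3, the secreted copper-zinc superoxide dismutase of the extracellular matrix, fell in silica lungs at 2, 8 and 16 weeks, by less than Sod2 rose. At 1 week Sod3 measured 11.09 to 11.42 in silica lungs (median 11.31), against 11.24, 11.29, 11.30 and 11.15 in air lungs. At 2 weeks Sod3 measured 11.06 to 11.27 in silica lungs (median 11.19), against 11.26, 11.48, 11.28 and 11.35 in air lungs. At 4 weeks Sod3 measured 11.07 to 11.41 in silica lungs (median 11.22), against 11.38, 11.31, 11.45 and 11.27 in air lungs. The groups overlapped at each of these times, and at 1 week 6 of 8 silica rats were on the higher side of the air mean. At 8 weeks Sod3 measured 11.05 to 11.26 in silica lungs (median 11.19), against 11.46, 11.33, 11.35 and 11.37 in air lungs. At 16 weeks Sod3 measured 10.95 to 11.08 in silica lungs (median 11.02), against 11.33, 11.19, 11.35 and 11.23 in air lungs. From 8 weeks the 2 groups were apart, and the spread among silica rats at 16 weeks was small. The differences were 0.04, -0.18, -0.12, -0.19 and -0.26 (SE 0.05 each), called at 2 weeks (adjusted p = 0.0251), 8 weeks (0.013) and 16 weeks (0.000123). The mean was -0.14 ± 0.02 (0.905-fold; adjusted p = 1.62e-06). The silica effect on Sod3 fell by 0.06 ± 0.02 per doubling of weeks (adjusted p = 0.0392), while the slope in air rats was 0.01 (0.902). Leaving out 1 air rat ended the call at 2 weeks (replicate 2: -0.13, adjusted p = 0.119; replicate 4: -0.17, 0.092) and at 8 weeks (replicate 1: -0.16, 0.0668). The slope call was lost without any of 12 of the 60 rats (adjusted p 0.0511 to 0.0949). Sod1, the cytosolic copper-zinc enzyme, differed by -0.08 to 0.05 and was not called.

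Mt1 had the largest difference of any member at 16 weeks, 2.52-fold higher in silica lungs. At 1 week Mt1 measured 10.47 to 10.66 in silica lungs (median 10.59), against 9.85, 9.72, 9.65 and 10.03 in air lungs. At 2 weeks Mt1 measured 10.32 to 10.83 in silica lungs (median 10.54), against 9.60, 9.63, 9.72 and 9.79 in air lungs. At 4 weeks Mt1 measured 10.29 to 10.59 in silica lungs (median 10.45), against 9.84, 9.49, 9.60 and 9.31 in air lungs. Here all 8 silica rats lay above all 4 air rats at each time. At 8 weeks Mt1 measured 10.62 to 11.08 in silica lungs (median 10.80), against 10.06, 9.90, 9.61 and 10.04 in air lungs. At 16 weeks Mt1 measured 10.81 to 11.15 in silica lungs (median 11.05), against 9.69, 9.62, 9.78 and 9.69 in air lungs. At 16 weeks the lowest silica rat was more than 1 log2 unit above the highest air rat. The differences were 0.77, 0.87, 0.89, 0.92 and 1.33 (SE 0.08 each), with adjusted p of 2.59e-09, 5.23e-11, 1.86e-11, 2.94e-12 and 3.05e-18, and the mean was 0.96 ± 0.04 (1.94-fold; adjusted p = 2.98e-28). Mt1 was also the 1 member for which the 5 silica effects differed among themselves by the F-test (adjusted p = 0.0213), beside 1.96% of all genes and 2.44% of those detected on every array. That call was lost without air replicate 1, 2 or 4 at 16 weeks (adjusted p = 0.0546, 0.0801 and 0.0571) and under median scaling (0.672). Its silica effect grew by 0.12 ± 0.03 per doubling of weeks (adjusted p = 0.011; under median scaling 0.13, 0.33). In air rats it did not pass for a trend (slope 0.00, adjusted p = 0.993). Members with a called slope of the silica effect numbered 3, Mt1 and Hmox1 upward and Sod3 downward, beside 1.75% of all genes (0.977% upward, 0.776% downward) and 2.18% of those detected on every array.

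Mt3, a metallothionein best known from brain, was dim. It was above background in 23 of 40 silica rats and in 4 of 20 air rats, and in no air rat at 1 or 16 weeks, so no fold is given. It is 1 of the 14 counted as higher in the mean (adjusted p = 0.0407), and no single time was called. With most air rats at background that call rests on values that are only a bound, and it was lost without any 1 of 18 of the 60 rats, under median scaling, in the authors' values and with no detection filter. Whether the Mt1 probe also reads other metallothioneins, whose messages are alike, was not tested.

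The stretches upstream of the 2 measured metallothionein genes are shown because Mt1 had the largest rise at 16 weeks and metallothionein genes are the textbook carriers of the metal response element, MRE. They come from RefSeq on GRCr8, 250 bases before the annotated start of each gene, at chr19:10832976-10833225 (Mt1) and chr19:10856081-10856330 (Mt3), both on the minus strand, written 5′ to 3′ with MRE cores in capitals. The core searched was TGCACNC or TGCGCNC, on both strands, with overlapping matches counted.
Mt1: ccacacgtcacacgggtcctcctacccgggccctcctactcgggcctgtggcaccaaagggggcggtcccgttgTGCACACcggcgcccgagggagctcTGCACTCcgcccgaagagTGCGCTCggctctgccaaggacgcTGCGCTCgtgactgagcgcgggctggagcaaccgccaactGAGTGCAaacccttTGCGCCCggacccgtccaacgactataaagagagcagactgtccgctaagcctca
Mt3: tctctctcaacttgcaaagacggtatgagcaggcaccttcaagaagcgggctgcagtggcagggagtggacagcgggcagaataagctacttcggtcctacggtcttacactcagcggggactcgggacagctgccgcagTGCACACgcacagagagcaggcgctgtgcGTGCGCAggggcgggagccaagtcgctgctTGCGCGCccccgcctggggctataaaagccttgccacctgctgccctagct
Mt1 held 6 matches and Mt3 held 3. Of 27457 rat upstream stretches of this length, 21.2% held at least 1 match, 1.25% at least 3 and 0.0219% at least 6. Among the 32 tested members with a sequence in the table, 8 held at least 1. Gsta4 held 3 matches, a pair of them overlapping, and its message fell in silica lungs.

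Hmox1, heme oxygenase 1, which breaks heme down to biliverdin, iron and carbon monoxide, was 1.60-fold higher in silica lungs at 4 weeks and 2.17-fold higher at 16 weeks. At 1 week Hmox1 measured 9.44 to 9.84 in silica lungs (median 9.73), against 9.36, 9.10, 8.79 and 10.53 in air lungs. At 2 weeks Hmox1 measured 9.48 to 9.93 in silica lungs (median 9.71), against 8.84, 9.55, 9.53 and 9.14 in air lungs. At 4 weeks Hmox1 measured 9.68 to 9.97 in silica lungs (median 9.76), against 9.28, 9.05, 9.19 and 8.91 in air lungs. The groups overlapped at 1 and 2 weeks, and replicate 4 of the air rats at 1 week lay above every silica rat. At 8 weeks Hmox1 measured 9.54 to 10.15 in silica lungs (median 9.98), against 9.39, 8.94, 8.95 and 9.67 in air lungs. At 16 weeks Hmox1 measured 10.08 to 10.41 in silica lungs (median 10.36), against 9.26, 8.82, 9.52 and 9.15 in air lungs. They were apart at 4 and 16 weeks and overlapped at 8 weeks by 1 air rat. The differences were 0.26 (adjusted p = 0.476), 0.44 (0.0712), 0.68 (0.00491), 0.67 (0.00306) and 1.12 (2.3e-07), with SE 0.16 each, and the mean was 0.63 ± 0.07. The silica effect grew by 0.19 ± 0.05 per doubling of weeks (adjusted p = 0.0272). That slope depended on single rats: without air replicate 4 at 1 week it was 0.12 (adjusted p = 0.116), without air replicate 2 at 16 weeks 0.17 (0.0682) and without air replicate 4 at 16 weeks 0.19 (0.0587). Without air replicate 4 the difference at 1 week was 0.62 (adjusted p = 0.00332).

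The iron store ferritin moved less. Ftl1, the ferritin light chain, ranged from 13.44 to 13.67 in silica lungs (median 13.52) at 16 weeks, against 13.19, 12.90, 13.44 and 13.31 in air lungs, touching at the edge. Its difference was 0.32 ± 0.09 (adjusted p = 0.00391), and without air replicate 2 it was 0.22 (0.081). Fth1, the heavy chain, differed by -0.07 to 0.00 and was not called. Hmox2, the constitutive heme oxygenase, was called in the mean over the 5 times alone (-0.07, adjusted p = 0.00199).

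**Figure D2:**
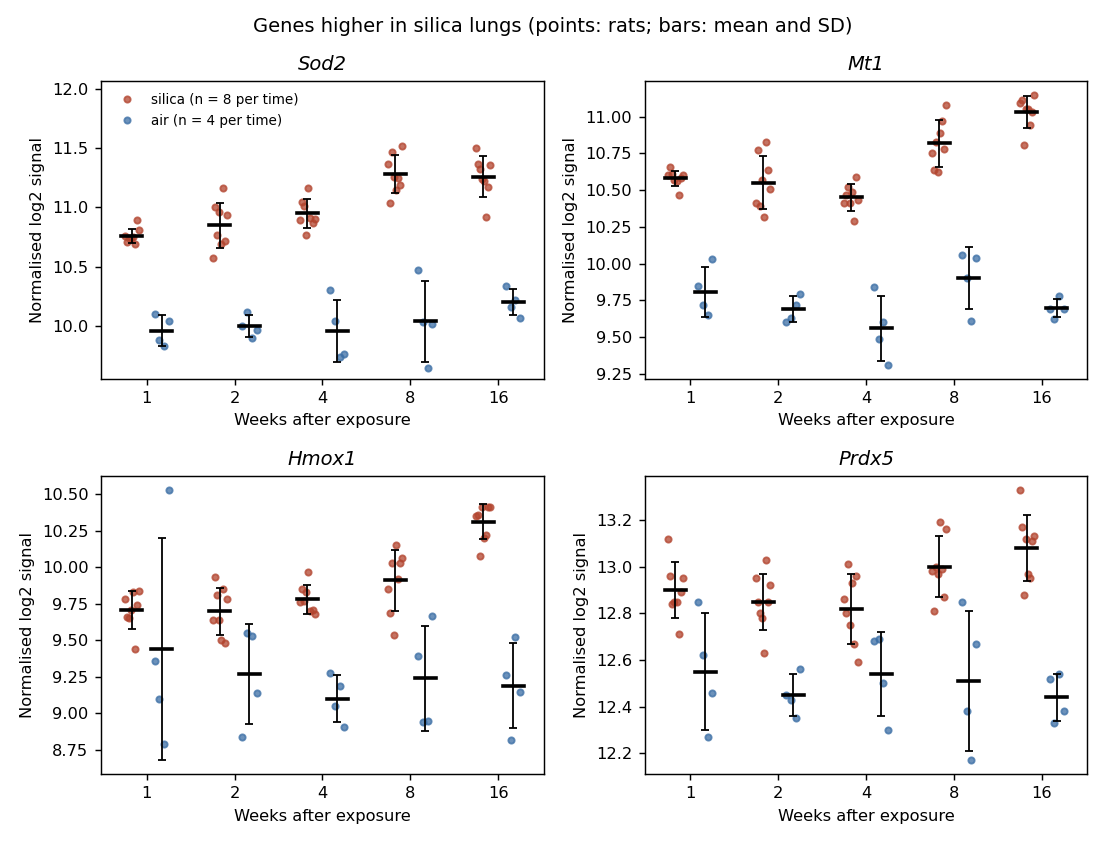
Log2 normalised signal of Sod2, Mt1, Hmox1 and Prdx5 in each rat (points) against weeks after exposure, with silica left of air at each time and bars for the group mean and SD (8 silica and 4 air rats). Sod2 and Mt1 groups are apart at all 5 times, while the Hmox1 groups overlap at 1, 2 and 8 weeks, and at 1 week 1 air rat at 10.53 lies above all silica rats.

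No catalase or glutathione peroxidase gene rose by the test at any time, and 3 of the 6 measured fell at 16 weeks, beside 12.2% of all genes. Gpx3, the secreted plasma glutathione peroxidase, gave the largest of these differences. At 2 weeks Gpx3 measured 13.69 to 13.96 in silica lungs (median 13.88), against 14.11, 14.03, 14.04 and 13.99 in air lungs. At 8 weeks Gpx3 measured 13.35 to 13.62 in silica lungs (median 13.52), against 13.70, 13.69, 13.79 and 13.79 in air lungs. At 16 weeks Gpx3 measured 13.27 to 13.44 in silica lungs (median 13.37), against 13.44, 13.58, 13.85 and 13.91 in air lungs. The groups were apart at 2 and 8 weeks and met at 13.44 at 16 weeks. Differences were -0.17 (adjusted p = 0.0616), -0.23 (0.00901) and -0.34 (3.08e-05) at these times with SE 0.06, and -0.05 and 0.02 at 1 and 4 weeks. Without air replicate 3 the call at 8 weeks was lost (-0.22, adjusted p = 0.0533). Gpx7, an enzyme of the endoplasmic reticulum, fell by 0.29 on the log2 scale at 16 weeks (SE 0.07, adjusted p = 0.00202), with groups that overlapped. Both genes were also lower at later times in air rats, with slopes of -0.06 ± 0.02 for Gpx3 (adjusted p = 0.0176) and -0.08 ± 0.02 for Gpx7 (0.00569) per doubling of weeks. They were the 2 members called in that comparison, beside 1.93% of all genes (0.74% upward, 1.19% downward) and 2.46% of those detected on every array. The Gpx3 slope in air rats was lost without replicate 2 at 1 week (adjusted p = 0.0624), replicate 1 at 16 weeks (0.183) or replicate 2 at 16 weeks (0.0939).

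Gpx4, which reduces lipid peroxides in membranes, measured 12.41 to 12.64 in silica lungs (median 12.51) at 16 weeks, against 12.60, 12.51, 12.84 and 12.97 in air lungs. The groups overlapped, and the difference of -0.21 (SE 0.06, adjusted p = 0.00912) was lost without air replicate 3 (-0.18, 0.0661) or air replicate 4 (-0.13, 0.166). The mean over the 5 times was -0.15 ± 0.03 (adjusted p = 2.56e-05). Catalase (Cat) of peroxisomes differed by -0.12 to 0.28, the abundant cytosolic Gpx1 by -0.04 to 0.13 and the epithelial Gpx2 by -0.12 to 0.12, none of them called.

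Peroxiredoxins went both ways. Prdx5, a peroxiredoxin of mitochondria, peroxisomes and cytosol, rose at 4 of the 5 times. At 1 week Prdx5 measured 12.71 to 13.12 in silica lungs (median 12.87), against 12.85, 12.62, 12.27 and 12.46 in air lungs. At 2 weeks Prdx5 measured 12.63 to 13.03 in silica lungs (median 12.85), against 12.45, 12.43, 12.35 and 12.56 in air lungs. At 4 weeks Prdx5 measured 12.59 to 13.01 in silica lungs (median 12.83), against 12.68, 12.69, 12.50 and 12.30 in air lungs. At 2 weeks the groups were apart, and at 1 and 4 weeks the highest air rats reached into the silica range. At 8 weeks Prdx5 measured 12.81 to 13.19 in silica lungs (median 12.98), against 12.85, 12.38, 12.17 and 12.67 in air lungs. At 16 weeks Prdx5 measured 12.88 to 13.33 in silica lungs (median 13.12), against 12.52, 12.33, 12.54 and 12.38 in air lungs. At 8 weeks air replicate 1 was inside the silica range, and at 16 weeks all 8 silica rats were above all air rats. Differences were 0.35 (adjusted p = 0.0225), 0.40 (0.00364), 0.28 (0.0619), 0.48 (0.000292) and 0.64 (5.49e-07; 1.56-fold), with SE 0.09, and the mean was 0.43 ± 0.04 (2.74e-12). The call at 1 week was lost without silica replicate 1 (0.32, adjusted p = 0.0568), air replicate 3 (0.25, 0.241) or air replicate 4 (0.32, 0.125). Under median scaling the calls at 1, 2 and 8 weeks were lost (2 weeks: 0.23, adjusted p = 0.463; 8 weeks: 0.5, 0.128).

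Prdx6, which also carries a phospholipase activity used in surfactant turnover, measured 13.45 to 13.81 in silica lungs (median 13.69) at 16 weeks, against 13.79, 13.96, 13.81 and 13.90 in air lungs, with a narrow overlap. It fell by 0.19 on the log2 scale at 16 weeks (SE 0.05, adjusted p = 0.00271) and by 0.16 at 8 weeks (0.0279), where the call was lost without silica replicate 8 or air replicate 2, 3 or 4 (adjusted p 0.0711 to 0.134). The cytosolic Prdx1 (0.12) and Prdx2 (-0.07) and the mitochondrial Prdx3 (0.07) were called in the mean over the 5 times and at no single time. Under median scaling the Prdx3 mean was -0.01 (adjusted p = 0.901) and the Prdx1 mean 0.04 (0.623), while the Prdx2 call was lost without any 1 of 28 of the 60 rats.

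In the thioredoxin system the reductase and the glutaredoxin rose. Txnrd1, the cytosolic selenoenzyme that reduces thioredoxin with NADPH, was higher at 8 and 16 weeks. At 1 week Txnrd1 measured 7.81 to 8.16 in silica lungs (median 7.95), against 7.75, 7.86, 8.00 and 7.87 in air lungs. At 2 weeks Txnrd1 measured 7.90 to 8.30 in silica lungs (median 8.04), against 7.94, 7.92, 7.72 and 7.88 in air lungs. At 4 weeks Txnrd1 measured 7.78 to 8.21 in silica lungs (median 8.01), against 7.93, 7.96, 7.68 and 7.97 in air lungs. These groups overlapped. At 8 weeks Txnrd1 measured 7.91 to 8.39 in silica lungs (median 8.08), against 7.87, 7.69, 7.90 and 7.82 in air lungs. At 16 weeks Txnrd1 measured 8.04 to 8.35 in silica lungs (median 8.19), against 7.81, 7.84, 7.83 and 7.96 in air lungs. At both later times every silica rat was above every air rat, by a narrow margin at 8 weeks. Differences were 0.12, 0.20, 0.14, 0.31 (adjusted p = 0.00935) and 0.34 (0.00155), with SE 0.08, and without air replicate 2 the call at 8 weeks was lost (0.27, 0.0684). The mean was 0.22 ± 0.04 (adjusted p = 2.31e-06).

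Glrx, which takes glutathione off protein thiols, was higher at 2 and 16 weeks. At 1 week Glrx measured 9.93 to 10.47 in silica lungs (median 10.23), against 10.20, 10.20, 10.06 and 10.09 in air lungs. At 2 weeks Glrx measured 10.01 to 10.29 in silica lungs (median 10.18), against 10.12, 9.95, 9.85 and 9.68 in air lungs. At 4 weeks Glrx measured 10.05 to 10.34 in silica lungs (median 10.18), against 10.18, 10.09, 10.02 and 10.08 in air lungs. At 2 weeks 1 air rat lay within the silica range, and at 1 and 4 weeks the groups overlapped more. At 8 weeks Glrx measured 10.15 to 10.69 in silica lungs (median 10.31), against 10.29, 10.10, 9.97 and 10.13 in air lungs. At 16 weeks Glrx measured 10.34 to 10.68 in silica lungs (median 10.50), against 10.03, 10.09, 10.19 and 9.74 in air lungs. At 16 weeks they were apart. Differences were 0.08, 0.28 (adjusted p = 0.022), 0.10, 0.20 (0.124) and 0.48 (1.02e-05; 1.39-fold), with SE 0.08, and the mean was 0.23 ± 0.04. The call at 2 weeks was lost without air replicate 3 (0.26, adjusted p = 0.102) or 4 (0.21, 0.218). Txn1, cytosolic thioredoxin, measured 13.90 to 14.04 in silica lungs at 16 weeks, against 13.95, 13.79, 13.77 and 13.77 in air lungs, 1 of which lay within the silica range. The difference was 0.17 (adjusted p = 0.00485), and under median scaling it was 0.15 (0.464). Txnip, which binds and blocks thioredoxin, fell by 0.17 at 16 weeks (adjusted p = 0.0415), a call lost without any 1 of 9 of the 12 rats at that time. The Txnip mean over the 5 times was -0.14, a call lost under 0 of 72 alternatives (limma adjusted p at most 0.00832). The mitochondrial Txn2 and Txnrd2 were not called, with differences of -0.19 to 0.11 and -0.07 to 0.07.

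No gene for making glutathione was called. Gclc and Gclm, the catalytic and modifier subunits of the rate-limiting glutamate-cysteine ligase, differed by -0.02 to 0.09 and -0.04 to 0.08, and glutathione synthetase Gss by -0.27 to 0.10, none called. Gsr, which reduces oxidised glutathione, rose at 4 weeks (0.27 ± 0.07, adjusted p = 0.0151), where silica and air rats were apart. That call was lost without air replicate 3 (0.25, adjusted p = 0.111) or 4 (0.20, 0.175).

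Among the 7 glutathione S-transferases, 4 fell and 1 rose at 16 weeks, beside 12.2% of all genes lower and 10.5% higher. Gstp1, the pi-class enzyme, fell at 2, 8 and 16 weeks. At 1 week Gstp1 measured 10.90 to 11.30 in silica lungs (median 11.15), against 11.35, 11.36, 11.26 and 11.60 in air lungs. At 2 weeks Gstp1 measured 10.77 to 11.38 in silica lungs (median 11.26), against 11.44, 11.59, 11.69 and 11.49 in air lungs. At 4 weeks Gstp1 measured 11.16 to 11.58 in silica lungs (median 11.43), against 11.68, 11.61, 11.40 and 11.33 in air lungs. The groups were apart at 2 weeks, where silica replicate 4 was lowest, and overlapped at 1 and 4 weeks. At 8 weeks Gstp1 measured 11.05 to 11.55 in silica lungs (median 11.33), against 11.54, 11.71, 11.81 and 11.51 in air lungs. At 16 weeks Gstp1 measured 11.15 to 11.39 in silica lungs (median 11.19), against 11.52, 11.44, 11.57 and 11.62 in air lungs. At 16 weeks they were apart, and at 8 weeks the highest silica rat was above the lowest air rats. Differences were -0.26 (adjusted p = 0.0932), -0.35 (0.00792), -0.10 (0.569), -0.32 (0.0128) and -0.30 (0.0102), with SE 0.09, and the mean was -0.27 ± 0.04 (2.41e-07; 0.831-fold). Without air replicate 3 the call at 2 weeks was lost (-0.30, adjusted p = 0.0725), and without air replicate 2 (-0.30, 0.0581) or 3 (-0.27, 0.108) that at 8 weeks. Under median scaling the call at 16 weeks was lost (-0.38, adjusted p = 0.0601).

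Gsta4, the alpha-class enzyme that conjugates the lipid peroxidation product 4-hydroxynonenal, gave the lowest ratio of the members at 16 weeks, 0.699-fold. At 1 week Gsta4 measured 8.81 to 9.44 in silica lungs (median 9.17), against 9.21, 9.46, 9.27 and 9.04 in air lungs. At 2 weeks Gsta4 measured 8.62 to 9.09 in silica lungs (median 8.88), against 9.35, 9.05, 9.10 and 9.30 in air lungs. At 4 weeks Gsta4 measured 8.58 to 9.22 in silica lungs (median 8.81), against 8.99, 9.10, 9.01 and 9.34 in air lungs. All of these groups overlapped, at 2 weeks narrowly. At 8 weeks Gsta4 measured 8.85 to 9.24 in silica lungs (median 9.05), against 9.32, 9.30, 9.21 and 8.94 in air lungs. At 16 weeks Gsta4 measured 8.46 to 9.06 in silica lungs (median 8.73), against 9.29, 9.65, 9.02 and 9.13 in air lungs. Overlap at 16 weeks came from air replicate 3, which lay below 2 of the silica rats. Differences were -0.09, -0.33, -0.28, -0.14 and -0.52, with SE 0.12, called at 16 weeks (adjusted p = 0.000864) and in the mean (-0.27 ± 0.05, 4.37e-05).

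The mu-class enzymes Gstm1 and Gstm2 varied more from rat to rat. At 1 week Gstm1 measured 8.44 to 9.30 in silica lungs (median 8.87), against 9.35, 8.66, 9.08 and 9.51 in air lungs. At 2 weeks Gstm1 measured 8.61 to 9.54 in silica lungs (median 9.01), against 8.75, 9.35, 9.27 and 9.26 in air lungs. At 4 weeks Gstm1 measured 8.81 to 9.47 in silica lungs (median 9.34), against 8.94, 9.26, 9.09 and 8.99 in air lungs. The ranges of silica and air rats overlapped widely. At 8 weeks Gstm1 measured 8.78 to 9.48 in silica lungs (median 9.17), against 9.10, 9.39, 9.69 and 9.27 in air lungs. At 16 weeks Gstm1 measured 8.55 to 9.41 in silica lungs (median 9.04), against 9.64, 9.66, 9.35 and 9.29 in air lungs. Gstm1 differed by -0.24, -0.10, 0.11, -0.22 and -0.45 (SE 0.17), called at 16 weeks (adjusted p = 0.0428) and lost there without any 1 of 7 of the 12 rats (-0.50 to -0.39; adjusted p 0.0525 to 0.139). Its mean of -0.18 missed the call (adjusted p = 0.0509).

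At 1 week Gstm2 measured 9.56 to 10.23 in silica lungs (median 9.93), against 10.22, 9.83, 10.17 and 10.54 in air lungs. At 2 weeks Gstm2 measured 9.49 to 10.26 in silica lungs (median 10.07), against 9.90, 10.25, 10.54 and 10.30 in air lungs. At 4 weeks Gstm2 measured 9.78 to 10.45 in silica lungs (median 10.17), against 10.15, 9.99, 10.26 and 9.83 in air lungs. As for Gstm1, these ranges overlapped. At 8 weeks Gstm2 measured 9.58 to 10.36 in silica lungs (median 9.92), against 10.27, 10.25, 10.41 and 10.47 in air lungs. At 16 weeks Gstm2 measured 9.41 to 10.03 in silica lungs (median 9.71), against 10.04, 10.09, 10.25 and 10.47 in air lungs. At 16 weeks the groups were apart by the narrowest margin. Gstm2 differed by -0.27, -0.26, 0.09, -0.40 (adjusted p = 0.0891) and -0.50 (0.00977), with SE 0.15, and by -0.27 in the mean (0.000949). Without air replicate 4 the call at 16 weeks was lost (-0.42, adjusted p = 0.0718). Whether either probe also reads the message of the other gene or of a close relative was not tested.

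The remaining transferases went different ways. Gsto1, the omega-class enzyme with thiol transferase activity, measured 10.91 to 11.13 in silica lungs at 16 weeks, against 10.84, 10.55, 10.84 and 10.67 in air lungs, without overlap (0.31 ± 0.07, adjusted p = 0.00102). Under median scaling that difference was 0.24 (adjusted p = 0.218). Gstt1, the theta-class enzyme, fell at 2 weeks (-0.30, adjusted p = 0.0104), a call lost without air replicate 3 (-0.24, 0.124) or 4 (-0.24, 0.126). Mgst1, a transferase of membranes, rose at 8 weeks (0.19, adjusted p = 0.0153), a call lost without air replicate 4 (0.13, 0.177), and in the mean (0.13). That mean was 0.05 (adjusted p = 0.559) under median scaling.

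**Figure D3:**
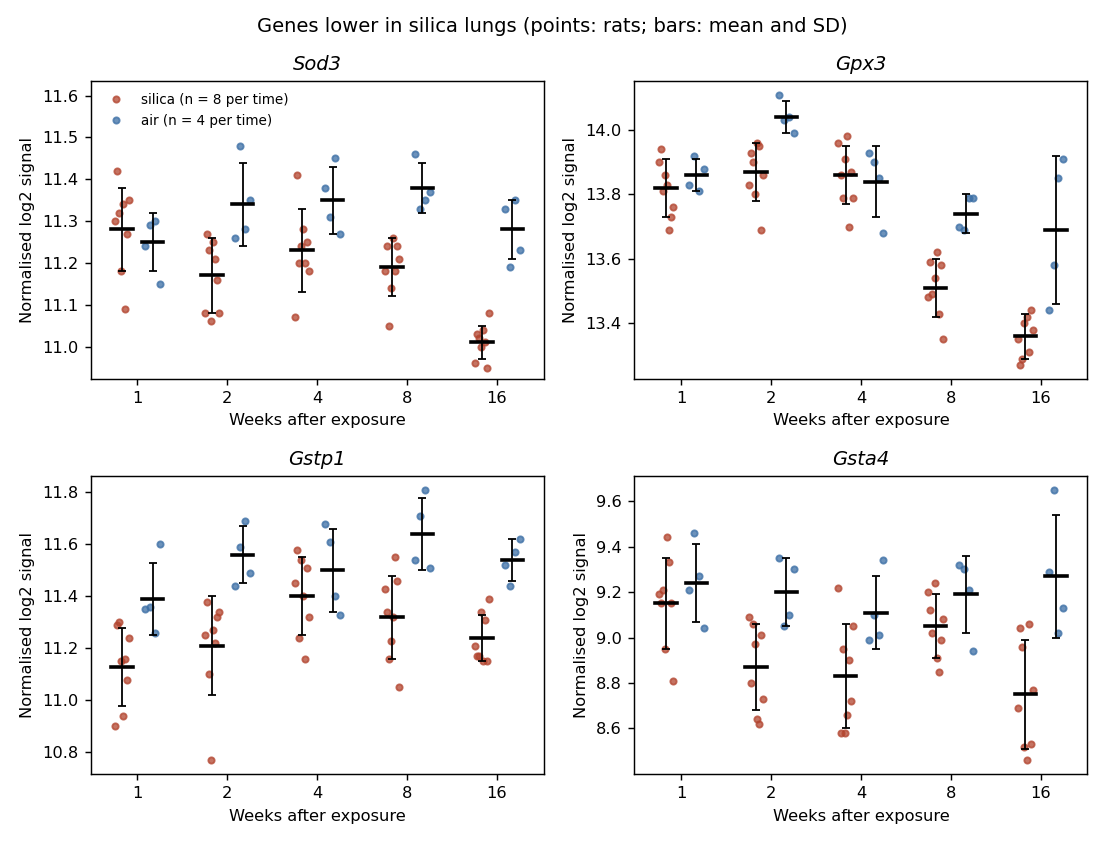
Log2 normalised signal of Sod3, Gpx3, Gstp1 and Gsta4 in each rat (points) against weeks after exposure, with silica left of air at each time and bars for the group mean and SD (8 silica and 4 air rats). Silica rats lie mostly below air rats at 16 weeks, and the Sod3 and Gstp1 groups are apart there.

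Nqo1, the quinone reductase used as a standard NRF2 target, differed by -0.03 to 0.14 and was not called, and neither was Nfe2l2 (-0.06 to 0.06) or Keap1 (-0.11 to 0.14). The ARE matches in the members' upstream stretches are shown because called and uncalled members both held them. The core searched was TGACNNNGC on both strands in the same 250 bases, and it is in capitals in each line, so a match on the other strand shows as GCNNNGTCA. Each window is from RefSeq on GRCr8, on the strand of its gene, with up to 10 bases on either side. Sod2 is at chr1:50050185-50050213 (minus), Gpx2 at chr6:101230034-101230056 (minus), Prdx1 at chr5:135383761-135383789 (plus), Gclm at chr2:213031953-213031981 (plus), Gstp1 at chr1:210769748-210769776 (minus), Mt1 at chr19:10833058-10833086 (minus) and Hmox2 at chr10:11337689-11337717 (minus).
Sod2: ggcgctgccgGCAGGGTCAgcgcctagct
Gpx2: acctggtttcGCTAAGTCAttct
Prdx1: cagggaaagcGCTGAGTCAtaccccgccg
Gclm: tgcggtttctGCTTAGTCAttgtcttcca
Gstp1: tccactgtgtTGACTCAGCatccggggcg
Mt1 ARE: gctgcgctcgTGACTGAGCgcgggctgga
Hmox2: gtcttggaagGCAGTGTCAgcttggccag
These are the 7 of 32 tested members with a sequence that held at least 1 match, beside 10.2% of all 27457 stretches. Sod3, Prdx6, Txnip, Gsr, Hmox1, Gstt1, Fth1 and Ftl1 had no sequence to search. Bases farther upstream were not searched for any gene, so the absence of a match here covers these 250 bases alone. Of them Sod2, Prdx1 and Mt1 were higher in the mean over the 5 times, Gstp1 and Hmox2 were lower, and Gpx2 and Gclm were not called. No match overlapped an MRE core.

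Other genes of the same pathways were taken from a list that was also chosen with earlier results of these data known. It held 72 genes, of which 59 were measured. Of these, 6 rose at 1 week, 10 rose and 5 fell at 2 weeks, 7 rose and 2 fell at 4 weeks, 10 rose and 2 fell at 8 weeks, and 17 rose and 9 fell at 16 weeks. The called shares were 10.2, 25.4, 15.3, 20.3 and 44.1%, beside the 3.79, 9.27, 6.42, 8.91 and 22.7% of all genes. Among genes detected on every array the shares were 4.88, 12.2, 8.47, 11.5 and 28.3%. Calls of these pathway genes are from the main fit alone, and how they hold under other processing is not given here. At 16 weeks 28.8% rose and 15.3% fell, beside 10.5 and 12.2% of all genes. The 5 measured genes of NADPH supply all rose at 16 weeks and in the mean, where 14.6% of all genes rose. Their median in the mean was 0.26, beside -0.01 for all genes. Pgd (0.26) and Taldo1 (0.19) of the pentose phosphate pathway, malic enzyme Me1 (0.37) and isocitrate dehydrogenase Idh1 (0.34) were among them, with adjusted p of 1.63e-11, 2.13e-10, 5.07e-10 and 1.1e-09 in the mean. Idh1 was called at all 5 times.

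Outside that group the smallest p belonged to Slc11a2, the divalent metal transporter DMT1. Its differences were 0.54, 0.43, 0.45, 0.77 and 0.56 (SE 0.07), with a mean of 0.55 ± 0.03 (adjusted p = 3.3e-21) and no overlap of groups at any time. Qsox1, a secreted sulfhydryl oxidase, differed by 0.74, 0.71, 0.55, 0.74 and 0.76 (SE 0.10) and was likewise apart at every time (mean 0.70 ± 0.05, adjusted p = 9.15e-19). Mgst2, another membrane transferase, rose by 0.29 in the mean (adjusted p = 5.28e-10). Nfe2l1, the NRF1 relative of NRF2, fell by 0.24 in the mean (adjusted p = 1.98e-08) and by 0.42 at 16 weeks. Of the 12 other glutathione S-transferases measured, 1 rose and 3 fell at 16 weeks (10.5 and 12.2% of all genes).

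Marker counts at 16 weeks are to be read beside the 10.5% of all genes called higher and 12.2% lower. The marker lists too were chosen with earlier results of these data known. Beside the members that rose, neutrophil markers were higher at 16 weeks for 5 of 8 measured, while Elane and Ltf were detected on 0 arrays. Their summed signals were 6940 to 9760 in silica lungs and 2520 to 3070 in air lungs. A sum weighs bright genes most, here S100a8 and Cd177 (means of 12.18 and 11.73 in silica lungs). Mpo, Ngp and Csf3r, which were not called, were dim (4.91, 5.02 and 5.9). Macrophage markers were higher for 6 of 8 (6770 to 9130 in silica lungs, 4090 to 5010 in air lungs), with Marco detected on 0 arrays. Alveolar type II markers were higher for 4 of 8 (86200 to 92400 in silica lungs, 76800 to 86000 in air lungs). Beside the members that fell, markers were lower for 6 of 6 endothelial genes (14700 to 17000 in silica lungs, 20400 to 23100 in air lungs), 4 of 6 ciliated genes (3210 to 4970 in silica lungs, 5370 to 6270 in air lungs) and 5 of 7 alveolar type I genes (38300 to 44800 in silica lungs, 45200 to 48900 in air lungs). Of 6 club cell genes 2 were lower (35300 to 48500 in silica lungs, 40200 to 54000 in air lungs). Of 5 heart muscle genes 4 were lower (213 to 3150 in silica lungs, 3820 to 7220 in air lungs). No heart muscle gene was called at 1, 2, 4 or 8 weeks, where the median differences of the list were -1.34, 1.07, 2.27 and -1.25. At 4 weeks the ciliated and club medians were 0.13 and 0.16, with no gene called. Fibroblast genes were lower for 2 of 7 (20500 to 23100 in silica lungs, 24000 to 25900 in air lungs). Of the other lists, 2 of 7 erythroid genes and 1 of 5 hepatocyte genes were lower, 4 of 7 glucocorticoid-responsive genes were higher, and of 6 clock genes 1 was higher and 1 lower. Nr1d1, a repressor in the circadian clock, was called at all 5 times, with differences of -1.57, 1.90, -1.68, -1.79 and -1.72, and Bmal1, a clock activator, differed by -0.69 at 2 weeks. The part of these cell types and lists in the members' differences was not tested. Time of day at killing was not among the values used here, so its part was not tested either.

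Within the 40 silica rats, taken as deviations from the mean of their own time, some members followed a marker list and others did not. Each of 11 members was set against each of 13 lists, taken as the mean log2 of the list's measured genes, each with equal weight. The p-values are from 100000 permutations with Benjamini-Hochberg adjustment over all these relations. Deviations were shuffled across times, with no allowance for the group means already removed, so these p-values lean small. For 19 of them both r and rho had an adjusted p under 0.05, and a member could follow several lists. Gstm1 followed the ciliated markers (r = 0.871, rho = 0.868, adjusted p = 0.000286, raw p = 1e-05, the smallest these permutations could give), and r was 0.862 without the 2 rats farthest out on the marker axis, 0.708 to 0.944 within single times and 0.816 to 0.994 within sets of 12 neighbouring columns of the deposited table. It also followed the club (r = 0.763, adjusted p = 0.000286), heart muscle (0.604, 0.00143) and endothelial markers (0.5, 0.0157), and ran against the erythroid markers (-0.484, 0.0157). The endothelial relation ran from -0.0583 to 0.938 within sets and the erythroid relation from -0.9 to 0.0644 within times, so neither held its sign throughout. Gstm2 followed the endothelial markers (r = 0.759, rho = 0.712, adjusted p = 0.000286), with 0.727 without 2 rats, 0.66 to 0.876 within times and 0.144 to 0.913 within sets. Txnrd1 ran against the endothelial markers (r = -0.742, rho = -0.691, adjusted p = 0.000286), with -0.71 without 2 rats, -0.803 to -0.715 within times and -0.865 to -0.412 within sets.

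Gstp1 also followed the endothelial markers (r = 0.683, rho = 0.636, adjusted p = 0.000286, 0.621 without 2 rats, 0.365 to 0.914 within times, 0.351 to 0.791 within sets). Prdx5 (r = 0.606, rho = 0.541, adjusted p = 0.000613) and Glrx (r = 0.672, rho = 0.537, adjusted p = 0.000477) followed the macrophage markers. Without 2 rats these values were 0.54 for Prdx5 and 0.486 for Glrx, and within single times they ran from 0.423 to 0.928 and from 0.204 to 0.825. Within sets they were 0.408 to 0.855 for Prdx5 and 0.169 to 0.903 for Glrx. Sod2 (r = 0.0444, rho = 0.174, adjusted p = 0.857) and Mt1 (r = 0.17, rho = 0.191, adjusted p = 0.454) did not pass with the neutrophil markers among silica rats. Without 2 rats these values were 0.321 for Sod2 and 0.299 for Mt1, and within single times they ran from -0.584 to 0.885 and from -0.141 to 0.549. Mt1 followed the alveolar type II markers (r = 0.48, rho = 0.499, adjusted p = 0.0157, 0.591 without 2 rats, 0.0919 to 0.785 within times, 0.169 to 0.802 within sets). Hmox1 followed the macrophage (r = 0.444, rho = 0.431, adjusted p = 0.0349) and alveolar type II markers (r = 0.431, rho = 0.437, adjusted p = 0.0375). Within single times these ran from 0.0483 to 0.676 and from 0.194 to 0.67. Prdx5 also ran against the ciliated (r = -0.517, adjusted p = 0.0117), clock (-0.502, 0.0116) and club markers (-0.494, 0.0157). The rest were Glrx with alveolar type I (-0.423, 0.0401), Gsta4 with endothelial (-0.439, 0.037) and Gstm2 with ciliated markers (0.481, 0.0157). Glrx with alveolar type I ran from -0.744 to 0.0669 within sets.

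**Figure D4:**
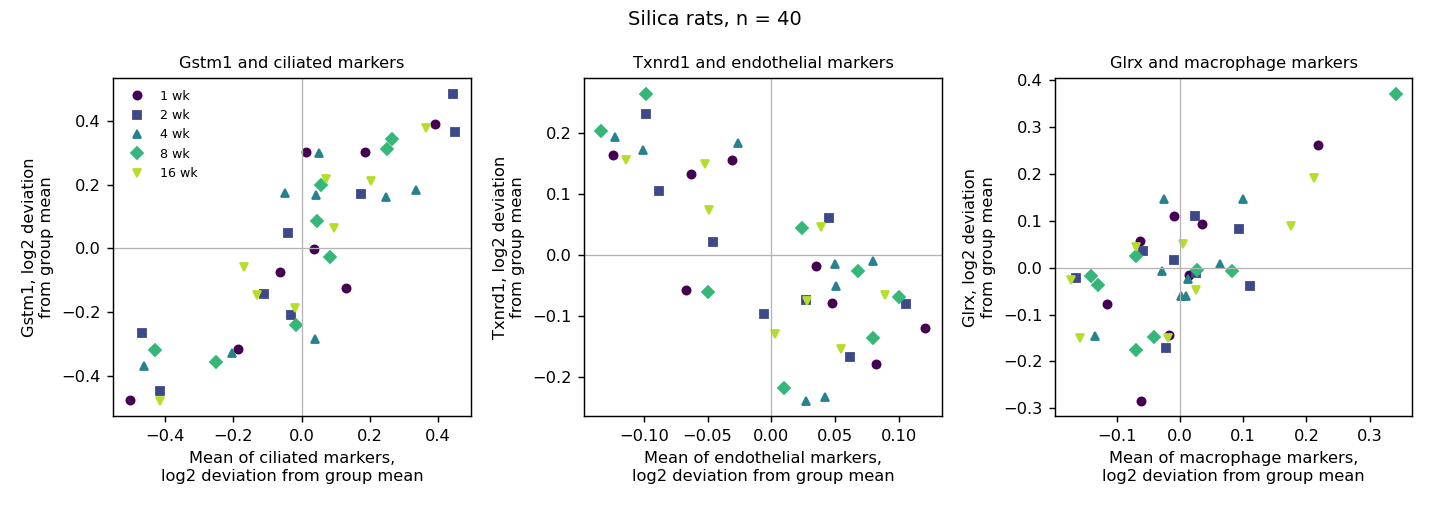
Deviation of Gstm1, Txnrd1 and Glrx (log2, vertical axes) from the mean of the rat's own time against the same deviation of the mean of ciliated, endothelial and macrophage markers (log2, horizontal axes) in 40 silica rats, 1 point per rat. Gstm1 rises with ciliated markers (r = 0.871), Txnrd1 falls with endothelial markers (r = -0.742) and Glrx rises with macrophage markers (r = 0.672).

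Some members also varied with each other from rat to rat. The p-values are from permutations made in the same way and lean small, most in the 20 air rats. Of 16 pair relations computed (8 pairs in silica and in air rats), Mt1 with Sod2 had r = 0.553 (rho = 0.486, adjusted p = 0.000663) in silica rats, 0.42 without 2 rats, 0.209 to 0.788 within times and 0.2 to 0.915 within sets. Mt1 with Hmox1 had r = 0.583 (rho = 0.477, adjusted p = 0.000576), 0.552 without 2 rats, 0.205 to 0.809 within times and 0.235 to 0.732 within sets. In the 20 air rats the same pairs had r = 0.696 (rho = 0.557, adjusted p = 0.00166) and 0.675 (rho = 0.73, adjusted p = 0.00204), with 0.483 and 0.734 without 2 rats. Within single times, with 4 air rats each, r ran from -0.54 to 0.866 for Mt1 with Sod2 and from 0.189 to 0.977 for Mt1 with Hmox1, so the first did not hold its sign. Sod2 with Prdx5 had r = 0.446 (adjusted p = 0.0065) in silica and 0.77 (0.0004) in air rats. Sod2 with Hmox1 had 0.438 (0.00695) and 0.356 (0.132). Within sets of silica rats they ran from -0.359 to 0.933 and from -0.198 to 0.748. Sod3 with Gpx3 had 0.327 (0.0469) in silica and -0.00235 (0.992) in air rats.

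Among the transferases, Gstm1 with Gstm2 had r = 0.696 (rho = 0.688, adjusted p = 0.000107) in silica rats, 0.695 without 2 rats, 0.547 to 0.935 within times and 0.55 to 0.963 within sets. In air rats the pair had r = 0.488 (adjusted p = 0.0352) and rho = 0.289 (0.232), and 0.122 without 2 rats, so there the relation rested on those rats. Gstm2 with Gsta4 ran the opposite way, although both fell at 16 weeks: r = -0.687 (rho = -0.705, adjusted p = 0.000107) in silica rats, -0.685 without 2 rats, -0.823 to -0.597 within times and -0.831 to -0.216 within sets. The 20 air rats gave r = -0.726 for that pair (rho = -0.78, adjusted p = 0.000663), and -0.684 without 2 rats. Gstp1 with Gstm2 had r = 0.624 (adjusted p = 0.000107) in silica rats and 0.515 (0.027) in air rats.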

How the data were processed

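Lung RNA of 60 rats was measured on Illumina bead arrays. Per the file headers, the deposited values are the average signal intensity of each gene's beads and a detection p-value. The authors' processed table is on a log2 scale, judged from its values (lowest correlation with log2 of the signals 0.993), and was an alternative only. BeadStudio, lumi and limma are named in the submitters' processing notes without versions. The scaling and filters behind the authors' table are not given in the sources used here.

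The table held 21792 gene lines and 2 blank lines. Background was corrected by normexp, with the negative controls (825 types) inferred from the detection p-values and 576 genes whose p-values were no whole multiple of the step (tolerance 0.01) left out of that inference. An offset of 16, quantile normalization and log2 followed. A gene needed a detection p under 0.05 on at least 4 arrays, with the brightest line for 163 symbols that had several. Names came from RefSeq genes of GRCr8, used for names and upstream sequences: the gene identifier named 16866 lines, the accession 23 and the deposited symbol 4786, which left 117 without a name. One displaced column, replicate 3 of silica at 4 weeks, was moved back by 2 lines from gene line 17 on (correlation with the median array 0.232 as deposited, 0.998 after).

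Each rat's group and replicate number are those of its label. In R 4.3.3, limma 3.58.1 (lmFit, eBayes) fitted 10 group means with 50 residual degrees of freedom. It compared silica with air at each time and tested the mean of these differences, their slope per doubling of weeks, an F-test among them, and the slope in air rats. The fit was tested on simulated data. Tables were made with scipy 1.17.1, pandas 2.3.3 and numpy 2.4.6 under Python 3.11.15. Correlations used 100000 permutations, two-sided, shuffled across times with no allowance for the group means removed. Precision is limited by the number of rats.

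The members, marker lists and pathway list were chosen with earlier results of these data known. Members were described in full if called at 3 or more times, called in the slope or F-test, or among the 10 largest mean effects, which gave 11. Up to 8 other pathway genes were named by smallest adjusted p in the mean. Alternatives were other background corrections, scalings, filters, weights, fits, call rules and leaving out each rat.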

Additional observations from a re-analysis of the deposited data

Results flagged for a closer look

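In 110 groups of rats tested for a single rat far from the others, 4 had one, and chance gives about 1 in 20 groups. Glrx in silica lungs at 8 weeks was highest in replicate 8 (10.69, the others 10.15 to 10.35). Gstp1 in silica lungs at 2 weeks was lowest in replicate 4 (10.77, the others 11.10 to 11.38). Txnrd1 in air lungs at 4 weeks was lowest in replicate 3 (7.68, the others 7.93 to 7.97). Gstm1 in air lungs at 2 weeks was lowest in replicate 1 (8.75, the others 9.26 to 9.35).

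A slope of the silica effect with time was called for 3 genes by limma. The slope per doubling of weeks was 0.12 for Mt1 (adjusted p = 0.011), 0.19 for Hmox1 (0.0272) and -0.06 for Sod3 (0.0392). For Mt1 alone the F-test of differences among the 5 effects was also called (adjusted p = 0.0213). No slope call held under median scaling or with the replicate number as a block.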

How the results depend on the processing

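Of 43 calls at single times 16 held at the same threshold under each other processing, filter, fit and left-out rat: Sod2 and Mt1 at all 5 times, and Sod3, Prdx5, Txnrd1, Glrx, Gsta4 and Hmox1 at 16 weeks. Of 25 calls in the mean 15 held: Sod2, Sod3, Gpx3, Gpx4, Gpx7, Prdx5, Prdx6, Txnrd1, Txnip, Glrx, Gstp1, Gsta4, Gstm2, Mt1 and Hmox1. The Prdx3 mean turned to -0.01 under median scaling. With 1 rat left out, members called numbered 2 to 6 at 1 week, 4 to 12 at 2 weeks, 3 to 7 at 4 weeks, 7 to 12 at 8 weeks, 16 to 19 at 16 weeks, 23 to 27 in the mean, 1 to 4 in the slope, 0 to 3 in the F-test and 1 to 2 in the slope of air rats. Median scaling gave 4 at 2 weeks, 2 at 4 weeks, 3 at 8 weeks (all higher, against 6 higher and 4 lower), 11 at 16 weeks, 0 in the slope, 0 in the F-test and 1 in the slope of air rats. The authors' values gave 7 at 4 weeks (6 higher, 1 lower), and cyclic loess 11 higher and 8 lower at 16 weeks and 1 in the slope of air rats. Array weights gave 3 at 2 weeks, and each time fitted alone 3 at 2 weeks and 5 at 8 weeks. No background correction, normexp without controls, detection on at least 30 arrays and an intensity trend each gave 2 in the F-test. Sets of 12 neighbouring columns as a block, chosen after seeing the data and not called batches by the labels, gave 7 at 4 weeks and 2 in the F-test. An adjusted p under 0.01 gave 4 at 2 weeks, 6 at 8 weeks, 0 in the slope, 0 in the F-test and 1 in the slope of air rats. A 1.5-fold change beside the call gave 2 at 2 weeks, 3 at 8 weeks, 4 at 16 weeks, 3 in the mean, 0 in the slope and 0 in the slope of air rats. Same-numbered rats did not pair (5 of 20 correlations above 0.1, range -0.344 to 0.385). With the replicate number as a block, a silica rat whose number no air rat shares adds nothing to the comparison. Members called were then 2 at 1 week, 4 at 2 weeks, 2 at 4 weeks, 3 at 8 weeks, 14 at 16 weeks, 22 in the mean, 0 in the slope and 0 in the F-test. The causes of these shifts were not tested. A slide block was not run, since no slide is named, nor the air slope with the replicate block, nor the mean, slopes or F-test with each time alone. Messages not above background, Slc7a11 and Srxn1, have only a bound.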
